A study of Mus musculus with 12 samples.

Results

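The collagen genes of skin, taken as every gene whose symbol is Col, a number, a and a number, were followed in RNA of plucked skin from 12 male mice, read on 12 one-colour expression arrays. Of 44 such symbols in the mouse gene table, 43 had a probe on the array. For 38 of them, among 16177 genes in all, a probe stood well above background on 3 or more arrays, and where a gene had several such probes the brightest on average stood for it. The 38 comprised 11 fibrillar chains, 6 basement membrane chains of type IV collagen, 6 FACIT chains, 4 transmembrane chains, 5 chains of the beaded filament type VI, 2 multiplexins, 2 network chains, the anchoring fibril chain Col7a1 and the unclassified Col26a1. Col6a4, Col9a3, Col10a1, Col19a1 and Col28a1 were well above background on 2 arrays at most and were left out. No probe was matched to Col12a1, which is not analysed here. Of the 38 genes, 27 were well above background on all 12 arrays and no collagen probe was saturated on any array.

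Collagens are trimers of chains wound into a triple helix. Fibrillar collagens form the tensile fibrils of the dermis, and FACIT collagens sit on the surface of those fibrils without forming fibrils themselves. Type IV collagen is the network of basement membranes, type VII forms the anchoring fibrils that tie the epidermal basement membrane to the dermis, and type XVII is a transmembrane collagen of the hemidesmosomes of basal keratinocytes. Fibroblasts make most dermal collagen, while types VII and XVII come largely or wholly from keratinocytes.

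The mice were Sox4 conditional knockouts in skin (cKO) or wild type (WT), all of mixed C57Bl6/129Sv background and all sampled 12 days after the hair was plucked. Exp 1 held 3 cKO and 3 WT mice aged 68 to 72 weeks, and Exp 2 held 3 cKO and 3 WT mice aged 16 to 20 weeks, so the age of the mice cannot be told apart from the experiment. The Cre line behind the deletion is not named in the labels. The study asked what the transcription factor Sox4 contributes to hair regrowth and follicle stem cell activation.

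Levels are given as log2 signal above or below the array's 75th percentile, and a difference of 1 on this scale is a doubling. The share of probes well above background ran from 53.9% to 62.6% over the arrays, and cKO mouse 5 of Exp 1 was lowest in that share and in brightness. Sox4 averaged -3.40 ± 0.69 in cKO skin and 2.13 ± 0.18 in WT skin (SD, n = 6 each), a difference of -5.54 (adjusted p = 3.76e-09, limma). The adipocyte markers of cKO mouse 5 averaged 0.20, against 2.47 to 4.08 in the other 11 mice, and its hair matrix markers averaged 2.39, against 4.86 or more elsewhere. Skin markers were present in every mouse, with the basal keratinocyte list at 5.67 or more and the fibroblast list at 3.07 or more. A gene is said to pass when its limma p-value, adjusted over all 16177 genes, is under 0.05.

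The comparison of genotypes asked whether collagen genes differed where Sox4 was deleted. Averaged over both experiments, none of the 38 collagens passed the threshold, against 0.42% of all genes, and 2 had an unadjusted p under 0.05 (limma; a share of 5.26%, against 12.2% of all genes). The median difference of the 38 was -0.03, beside -0.04 for all genes tested, with 16 values above 0 and 22 below. In whole tissue, fewer cells of a type and less RNA per cell cannot be told apart. No collagen separated all cKO from all WT mice, against 0.0556% of all genes higher and 1.2% lower without overlap. The chains that make the bulk of dermal fibrils differed little between genotypes. Col1a1, the major chain of type I collagen, spanned 7.75 to 8.13 (median 7.95) in cKO skin and 7.65 to 8.04 (median 7.93) in WT skin, a difference of 0.06 with a 95% interval from -0.15 to 0.28. Col1a2, its partner, differed by -0.01 (interval -0.24 to 0.22), and Col3a1, the homotrimeric chain of type III collagen that joins type I in dermal fibrils, by 0.05 (interval -0.21 to 0.31). The 2 genotypes overlapped in all 3 genes, and the intervals leave room only for differences of well under a doubling. For Col5a1 and Col5a2, chains of the type V collagen that sets fibril diameter, the differences were -0.03 (interval -0.24 to 0.19) and -0.19 (interval -0.55 to 0.17).

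The other skin collagens likewise did not pass in the averaged comparison of genotypes. Col7a1 differed by 0.31 (interval -0.11 to 0.74) and Col17a1 by 0.27 (interval -0.19 to 0.73). The ubiquitous basement membrane chains Col4a1 and Col4a2 differed by -0.33 each (intervals -0.72 to 0.06 and -0.77 to 0.10). The type VI chains Col6a1, Col6a2 and Col6a3, which build the microfibrils around dermal cells, differed by -0.16, -0.19 and -0.24, with adjusted p between 0.457 and 0.515. Col14a1, a FACIT collagen that limits fibril growth, differed by -0.11, and Col15a1, a multiplexin of vessel and nerve basement membranes, by -0.01.

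The smallest p-values between genotypes belonged to Col26a1, Col18a1 and Col4a6. Col26a1, a short collagen with an EMI domain first found in the gonads, ranged from -4.28 to -2.60 (median -3.01) in cKO skin and from -3.10 to -2.33 (median -2.62) in WT skin. Its difference of -0.58 (SE 0.17) had an adjusted p of 0.206, and without cKO mouse 6 it was -0.72 with an adjusted p of 0.0317. Col18a1, the basement membrane multiplexin whose tail is released as endostatin, ranged from 4.01 to 4.27 in cKO skin and from 4.01 to 4.57 in WT skin, a difference of -0.21 (SE 0.071, adjusted p = 0.279). Col4a6 differed by 0.22 (adjusted p = 0.422). Mice of both genotypes overlapped in each of these genes.

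**Figure D1:**
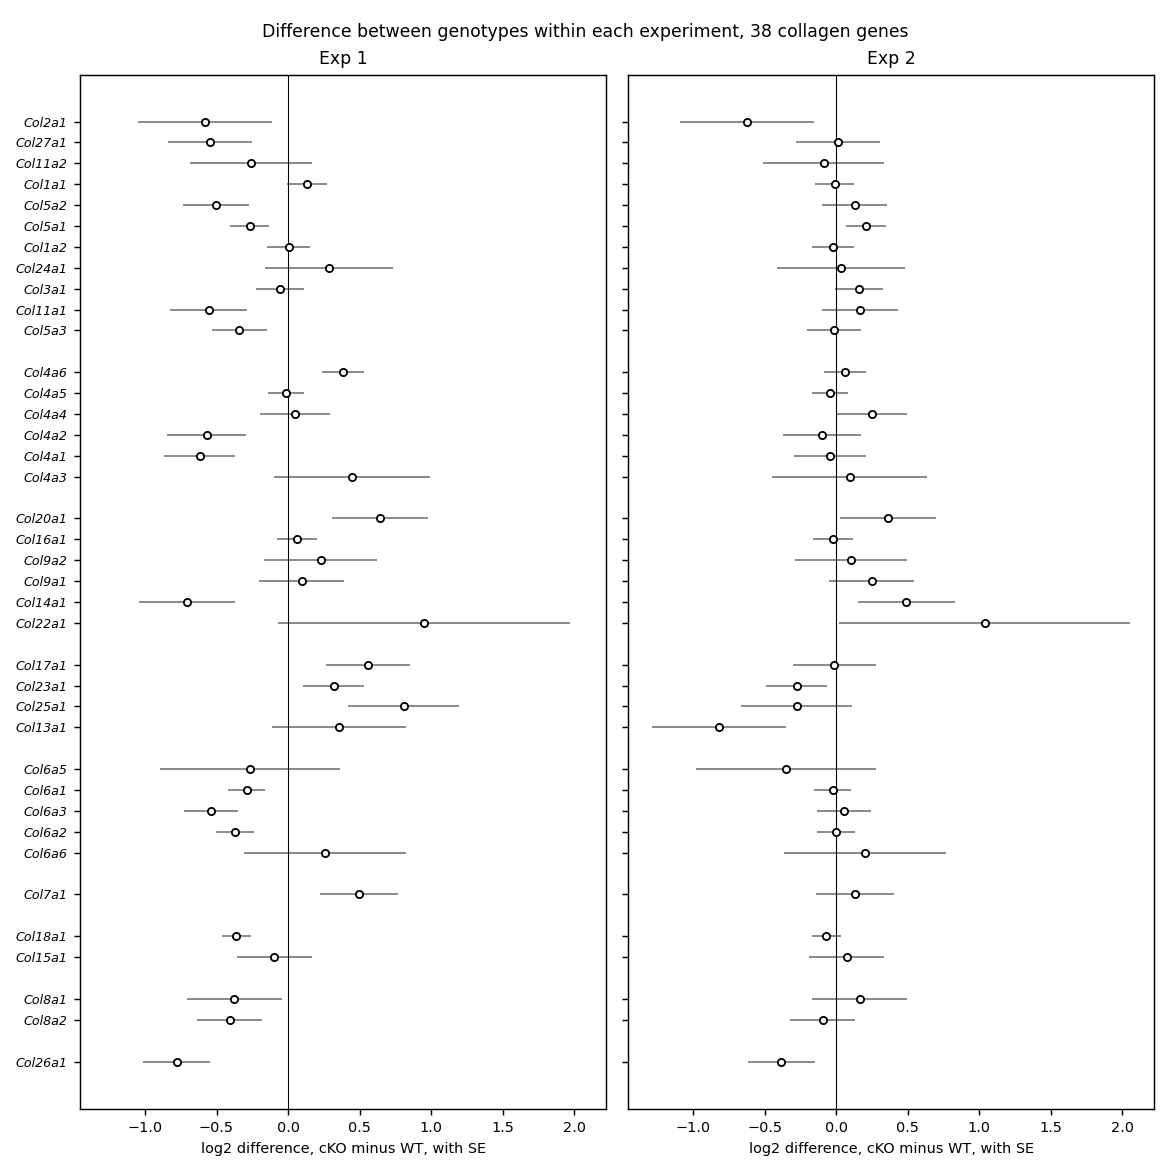
Differences between cKO and WT skin (log2, horizontal axis, with SE) for the 38 collagen genes, within Exp 1 (left) and within Exp 2 (right), grouped by class from fibrillar at the top to Col26a1 at the bottom. No gene passed the threshold in either experiment. The type VI chains Col6a1, Col6a2 and Col6a3 lie between -0.54 and -0.29 in Exp 1 and close to 0 in Exp 2.

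Within Exp 1, 8 collagens had no overlap between the 3 cKO and the 3 WT mice, 7 of them lower (18.4% of the 38, against 7.2% of all genes) and 1 higher (2.63%, against 5.66%). None passed the threshold, which 0.117% of all genes passed, and 7 had an unadjusted p under 0.05 (18.4%, against 11.3% of all genes). The type VI chains were among the lower genes. Col6a2 stood at 2.30, 2.27 and 2.08 in cKO mice 2, 5 and 6 of Exp 1, against 2.49, 2.58 and 2.70 in WT mice 1, 2 and 3, and Col6a3 at 3.45, 3.42 and 3.18, against 3.66, 3.99 and 4.03. Every cKO value was below every WT value, yet the differences of -0.37 (SE 0.13) and -0.54 (SE 0.19) had adjusted p of 0.347 and 0.337. Col6a1 showed the same order, with 4.83, 4.91 and 4.65 in the cKO mice, against 5.01, 5.06 and 5.18 in the WT mice (difference -0.29, adjusted p = 0.437).

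Col18a1 had the smallest p of the 38 in Exp 1, with 4.10, 4.12 and 4.27 in cKO mice, against 4.45, 4.57 and 4.56 in WT mice, a difference of -0.36 (SE 0.10, adjusted p = 0.254). Its second probe also read lower in cKO skin averaged over both experiments (-0.18, adjusted p = 0.308). Col26a1 (-0.78, adjusted p = 0.283), Col4a1 (-0.62, adjusted p = 0.401) and Col5a1 (-0.27, adjusted p = 0.487) were the other lower genes without overlap. Col4a6 was the higher one, at 1.09, 1.39 and 1.26 in cKO mice, against 0.91, 0.78 and 0.88 in WT mice (difference 0.39, adjusted p = 0.377). The fibroblast marker list averaged 3.07 to 3.84 in cKO mice 2, 5 and 6, against 3.39 to 3.95 in the WT mice of Exp 1, and its median difference was -0.17. In the same comparison the median was 3.00 for skeletal muscle markers (12 of 12 positive), -0.85 for adipocyte, -0.83 for hair matrix (5 of 5 negative) and 0.44 for basal keratinocyte markers (5 of 5 positive), with none passing. Their part in these values was not tested.

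Within Exp 2, no collagen passed, against 0.0618% of all genes, and 0 had an unadjusted p under 0.05, against 4.67% of all genes (limma). None was higher in cKO mice without overlap (against 2.71% of all genes), and Col13a1 and Col26a1 were lower without overlap (5.26% of the 38, against 9.87%). The smallest p-values were those of the transmembrane chain Col13a1 (-0.82, adjusted p = 0.977), Col26a1 (-0.38) and Col5a1 (0.21). Col13a1 was not well above background on any cKO array of Exp 2, so its level there is a bound, at least 1.4-fold lower than in WT skin. Col6a2 was 3.10, 2.96 and 2.64 in cKO mice 1, 3 and 4, against 2.93, 2.88 and 2.89 in WT mice 4, 5 and 6, so the WT values fell inside the range of the cKO values.

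The test of the difference between these genotype effects, the interaction, called none of the 38 (0.00618% of all genes passed), and 3 had an unadjusted p under 0.05 (limma; 7.89%, against 3.16% of all genes). These were Col14a1 (-1.20, SE 0.48), Col5a1 (-0.48, SE 0.19) and Col6a3 (-0.59, SE 0.27), with an unadjusted p of 0.0304, 0.0331 and 0.0488 and an adjusted p of 1 in each. Col14a1 was 0.90, 0.81 and 1.16 in cKO mice of Exp 1, against 0.94, 2.28 and 1.77 in WT mice, while in Exp 2 it was 2.49, 2.55 and 2.45 in cKO mice, against 2.20, 1.35 and 2.46 in WT mice. By class, all 4 transmembrane chains had a positive interaction value (median 0.84, beside 0.03 for all genes), from a median genotype difference of 0.46 in Exp 1 and of -0.28 in Exp 2. The basal keratinocyte markers had values of the same sign (interaction median 0.56, 5 of 5 positive; 0.44 in Exp 1 and -0.21 in Exp 2), and their part was not tested. None of the 4 chains passed, and Col13a1 and Col25a1 were well above background on only 3 and 4 arrays.

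The experiments differed in many more collagens than the genotypes. Averaged over genotypes, 13 of 38 collagens (34.2%) passed the threshold between Exp 1 and Exp 2, against 20.2% of all genes. With an unadjusted p under 0.05 there were 24 (63.2%, against 35.3% of all genes). Of the 13, 6 were higher in Exp 1 (15.8%, against 10.7% of all genes) and 7 were lower (18.4%, against 9.47%). The higher genes were led by Col7a1, Col17a1 and Col4a6, whose proteins lie at the junction of epidermis and dermis, and the lower ones by Col14a1, Col26a1 and Col4a1. With the mean level of 12 skeletal muscle genes added to the fit, 0 of the 38 collagens and 0 of all genes passed (limma; 9 collagens had an unadjusted p under 0.05). That muscle mean itself differed between experiments, at -4.43 to 0.18 in Exp 1 and -1.20 to 5.47 in Exp 2. The fit can therefore hardly separate the term from the experiment, and the part of muscle in each gene was not tested. The values themselves moved unevenly. Col7a1 was 1.51 with that term, Col17a1 1.25, Col4a6 0.86 and Col26a1 -0.87, while Col14a1 was -0.31, Col23a1 0.21 and Col3a1 -0.11. The signs of all 13 were kept.

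Col7a1, the chain of type VII collagen, spanned 3.65 to 4.94 (median 3.87) in the 6 mice of Exp 1 and 2.57 to 3.02 (median 2.82) in the 6 mice of Exp 2. Every Exp 1 mouse was above every Exp 2 mouse. The difference was 1.23 (SE 0.19, adjusted p = 0.0036), or 2.35-fold higher in Exp 1. Col17a1, the chain of type XVII collagen, spanned 4.37 to 5.88 (median 4.66) in Exp 1 and 3.47 to 4.04 (median 3.62) in Exp 2, again with no overlap. It was 2.20-fold higher (1.14, SE 0.21, adjusted p = 0.0059). The highest value of both genes was that of cKO mouse 5, and without it the differences were 1.07 (adjusted p = 0.00279) and 0.94 (adjusted p = 0.00278).

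Col4a6, a type IV chain that joins Col4a5 in the epidermal basement membrane, spanned 0.78 to 1.39 (median 1.00) in Exp 1 and -0.06 to 0.40 (median 0.23) in Exp 2. The groups did not overlap, and the difference of 0.87 (SE 0.10, adjusted p = 0.00178) was 1.83-fold. Its second probe, A_52_P447196, was also well above background on all 12 arrays but differed by -0.23 (SE 0.19, adjusted p = 0.427), the opposite sign, and the mean of both probes differed by 0.32 (adjusted p = 0.0463). The call for Col4a6 therefore holds for probe A_52_P516409, and which transcripts each probe reads was not tested. Col4a5 differed by 0.24 (SE 0.089, adjusted p = 0.085). These 3 genes were the only collagens without overlap between experiments, all higher in Exp 1 (7.89% of the 38, against 5.72% of all genes), and none was lower without overlap (against 4.55%).

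Col23a1, a transmembrane collagen of cell surfaces, spanned -1.07 to -0.26 (median -0.89) in Exp 1 and -1.67 to -0.94 (median -1.48) in Exp 2, 1.61-fold higher (0.68, SE 0.15, adjusted p = 0.0123). The experiments overlapped in this gene, and both of its other probes were also higher in Exp 1 (0.87, adjusted p = 0.0025, and 0.51, adjusted p = 0.0308). Col27a1, a fibrillar chain best known from cartilage, spanned -3.59 to -2.32 (median -2.91) in Exp 1 and -4.12 to -3.27 (median -4.02) in Exp 2, 1.78-fold higher (0.83, SE 0.21, adjusted p = 0.0203). Col18a1 rose least, 1.19-fold (0.26, SE 0.071, adjusted p = 0.0309), and its second probe did not pass (0.11, adjusted p = 0.26). The Exp 1 mice that overlapped with Exp 2 in Col18a1 were cKO mice, at 4.10 and 4.12, while the WT mice of Exp 1 were all at 4.45 or above.

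**Figure D2:**
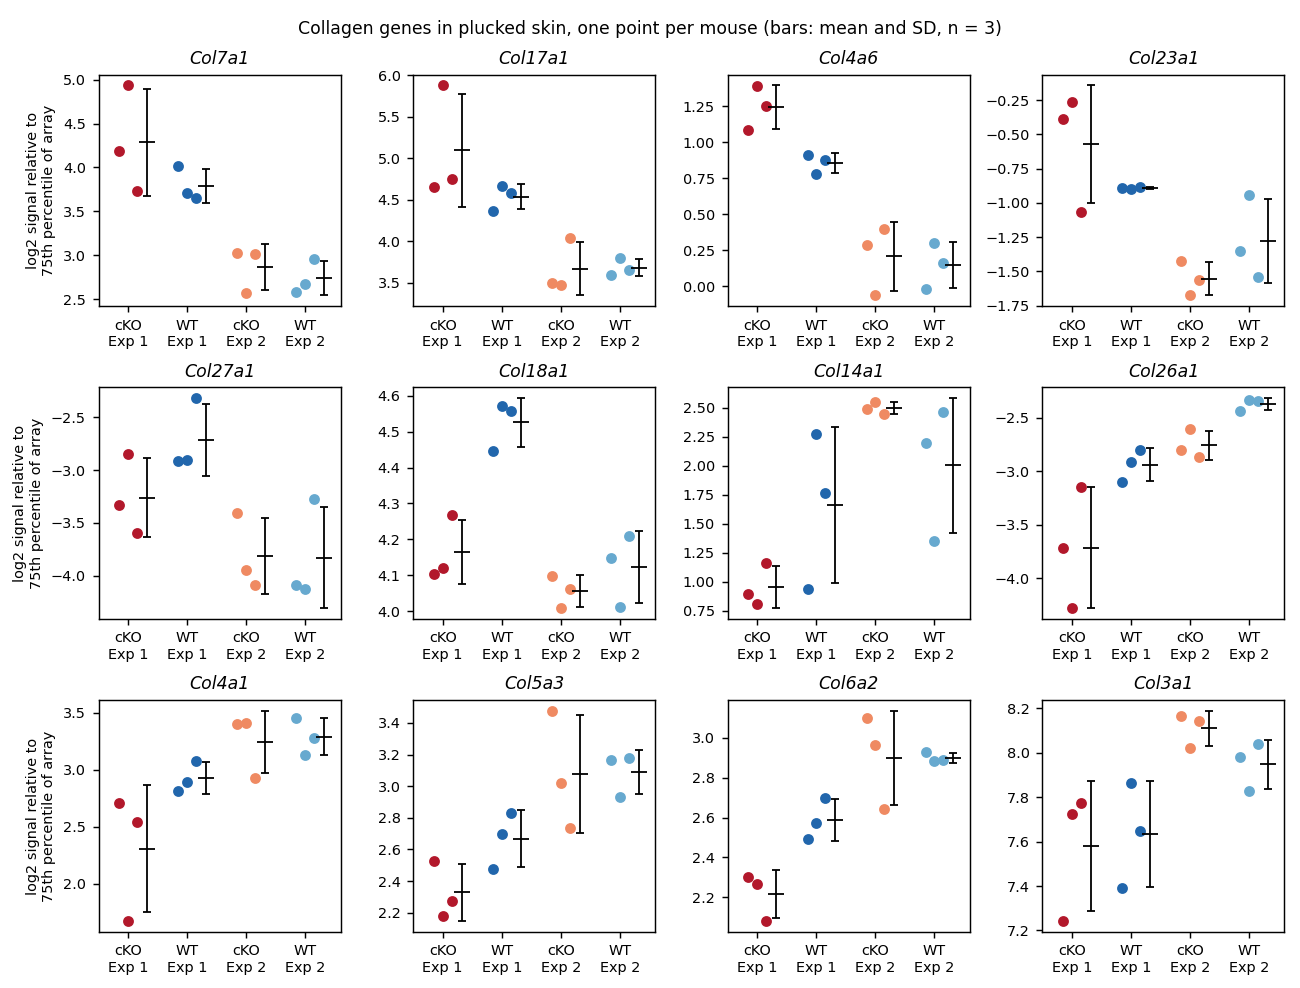
Level of 12 collagens in each mouse (vertical axis, log2 signal against the array's 75th percentile), with 3 mice in each of cKO Exp 1, WT Exp 1, cKO Exp 2 and WT Exp 2 and black bars for mean and SD. Col7a1, Col17a1 and Col4a6 separate the experiments without overlap, while in the lower row Col4a1, Col5a3, Col6a2 and Col3a1 are lower in Exp 1 with overlapping mice.

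Apart from Col26a1, the lower genes encode chains of fibrils, fibril surfaces, microfibrils and basement membranes. Col14a1 spanned 0.81 to 2.28 (median 1.05) in Exp 1 and 1.35 to 2.55 (median 2.46) in Exp 2, 1.92-fold lower (-0.94, SE 0.24, adjusted p = 0.0214). Both of its probes passed, the second at -0.89 (adjusted p = 0.00394). WT mouse 2 of Exp 1 was high and WT mouse 5 of Exp 2 was low among their groups. Col26a1 spanned -4.28 to -2.80 (median -3.13) in Exp 1 and -2.87 to -2.33 (median -2.52) in Exp 2, with a difference of -0.76 (SE 0.17, adjusted p = 0.0115).

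Col4a1 spanned 1.67 to 3.08 (median 2.76) in Exp 1 and 2.93 to 3.46 (median 3.34) in Exp 2, with a difference of -0.65 (SE 0.18, adjusted p = 0.0287). Its lowest value was that of cKO mouse 5, and without that mouse the difference was -0.49 (adjusted p = 0.0189). Col4a2, which shares the type IV heterotrimer with Col4a1, differed by -0.53 and did not pass (adjusted p = 0.0779). Col5a3, the minor chain of type V collagen, spanned 2.18 to 2.83 (median 2.50) in Exp 1 and 2.74 to 3.48 (median 3.09) in Exp 2, a difference of -0.59 (SE 0.13, adjusted p = 0.0142).

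Col6a2 spanned 2.08 to 2.70 (median 2.40) in Exp 1 and 2.64 to 3.10 (median 2.91) in Exp 2, 1.41-fold lower (-0.50, SE 0.093, adjusted p = 0.00673). Col6a1 was 1.23-fold lower (-0.30, SE 0.091, adjusted p = 0.0418), and Col6a3 differed by -0.35 without passing (adjusted p = 0.0876). Col3a1 spanned 7.24 to 7.86 (median 7.69) in Exp 1 and 7.83 to 8.17 (median 8.03) in Exp 2, 1.34-fold lower (-0.42, SE 0.12, adjusted p = 0.0309). The overlap between experiments in Col3a1 was that of WT mouse 2, at 7.86, and WT mouse 5, at 7.83. Leaving out 1 mouse at a time, Col7a1, Col17a1, Col4a6, Col23a1, Col26a1, Col5a3 and Col6a2 passed in all 12 fits. Col14a1 (-0.93 to -0.89) and Col27a1 (0.77 to 0.80) did not pass without WT mouse 4 or without cKO mouse 3. Col4a1 did not pass in 6 of the 12 fits, Col3a1 in 7, Col18a1 in 8 and Col6a1 in 10, each with its direction kept, so these 4 calls lie close to the threshold. Both chains of type I collagen stayed closer, with Col1a1 at -0.02 (interval -0.24 to 0.19) and Col1a2 at -0.22 (interval -0.45 to 0.01).

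**Figure D3:**
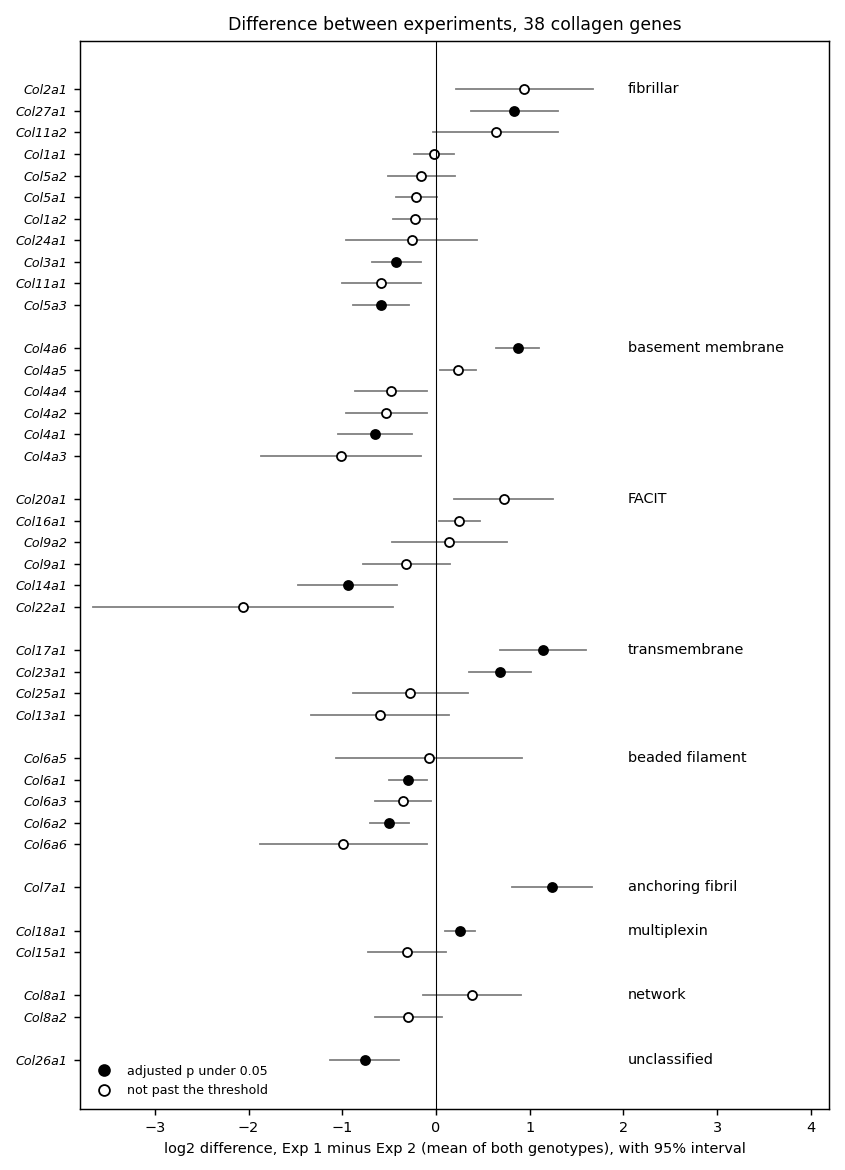
Difference between Exp 1 and Exp 2, averaged over genotypes (log2, horizontal axis, with 95% interval), for 38 collagen genes grouped by class. Filled points mark the 13 genes past the threshold, which reach from -0.94 in Col14a1 to 1.23 in Col7a1. All 5 type VI chains lie below 0, though Col6a5 and Col6a6 were above background on only 4 arrays each.

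By class, the median difference between Exp 1 and Exp 2 was -0.21 for the 11 fibrillar chains (1 higher and 2 lower passed), -0.51 for the 6 type IV chains (1 higher and 1 lower), -0.09 for the 6 FACIT chains (1 lower) and 0.20 for the 4 transmembrane chains (2 higher). It was -0.35 for the 5 type VI chains, all below 0, of which 2 passed. Of these chains, Col6a5 and Col6a6 were above background on only 4 arrays each, Col6a6 on no array of Exp 1. Col6a5 differed by only -0.07 (SE 0.45), so the signs of these genes are uncertain. The median was -0.27 over all 38 collagens and 0.01 over all genes tested. The fibrillar, type IV, FACIT and transmembrane classes each held values on both sides of 0. Col22a1, a FACIT chain of the myotendinous junction chosen here after its values were seen, was above background on 1 of the 6 arrays of Exp 1 and on 5 of the 6 of Exp 2, so most of its Exp 1 values are not measured levels. It did not pass (fitted difference -2.06, SE 0.72, adjusted p = 0.0678). The signal was -3.61 in cKO mouse 6 and -6.25 or lower in the other 5 mice of Exp 1, against -6.93 in WT mouse 5 and -4.23 or higher in the other 5 mice of Exp 2.

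Printed next are the 250 bases before the annotated start of the 3 genes with the largest differences among those that passed and were higher in Exp 1, and of the 3 that passed and were lower and have a single, separate start in the promoter table, so that their sequences can be set side by side. They come from RefSeq on GRCm38.p6, where 31 of the 38 genes had an entry, and capitals mark matches, on either strand, to TATAAA for the TATA box, CCAAT for the CCAAT box, GGGCGG for the GC box, TGANTCA for the AP-1 site and ACAAAG for the Sox and Tcf core. No matches overlapped. The higher genes are Col17a1 at chr19:47692043-47692292 (minus strand), Col7a1 at chr9:108953336-108953585 (plus strand) and Col4a6 at chrX:141474077-141474326 (minus strand), and the lower genes are Col3a1 at chr1:45311288-45311537 (plus strand), Col5a3 at chr9:20815068-20815317 (minus strand) and Col6a1 at chr10:76726045-76726294 (minus strand).
Col17a1: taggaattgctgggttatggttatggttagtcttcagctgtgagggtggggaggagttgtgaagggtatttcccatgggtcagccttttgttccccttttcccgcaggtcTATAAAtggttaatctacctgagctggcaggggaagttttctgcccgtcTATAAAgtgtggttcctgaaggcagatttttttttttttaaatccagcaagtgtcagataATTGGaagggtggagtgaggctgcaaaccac
Col7a1: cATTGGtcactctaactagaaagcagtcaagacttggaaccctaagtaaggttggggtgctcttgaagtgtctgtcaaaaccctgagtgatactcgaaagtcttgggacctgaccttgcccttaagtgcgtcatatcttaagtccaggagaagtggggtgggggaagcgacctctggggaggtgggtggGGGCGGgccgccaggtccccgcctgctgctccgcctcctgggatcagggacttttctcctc
Col4a6: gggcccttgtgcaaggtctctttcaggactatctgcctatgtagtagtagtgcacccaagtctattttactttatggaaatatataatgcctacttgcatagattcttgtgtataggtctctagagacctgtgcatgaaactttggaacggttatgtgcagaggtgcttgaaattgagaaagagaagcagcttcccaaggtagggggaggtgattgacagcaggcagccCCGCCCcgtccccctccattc
Col3a1: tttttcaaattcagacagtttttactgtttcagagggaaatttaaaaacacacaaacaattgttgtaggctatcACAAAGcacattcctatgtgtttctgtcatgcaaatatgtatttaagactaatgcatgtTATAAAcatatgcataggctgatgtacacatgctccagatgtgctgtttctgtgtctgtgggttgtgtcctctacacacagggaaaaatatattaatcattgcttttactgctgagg
Col5a3: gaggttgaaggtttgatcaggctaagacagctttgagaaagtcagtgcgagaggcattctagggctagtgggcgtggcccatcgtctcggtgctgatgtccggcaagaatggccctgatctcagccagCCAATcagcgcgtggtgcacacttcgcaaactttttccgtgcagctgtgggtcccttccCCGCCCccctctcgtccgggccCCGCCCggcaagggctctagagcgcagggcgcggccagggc
Col6a1: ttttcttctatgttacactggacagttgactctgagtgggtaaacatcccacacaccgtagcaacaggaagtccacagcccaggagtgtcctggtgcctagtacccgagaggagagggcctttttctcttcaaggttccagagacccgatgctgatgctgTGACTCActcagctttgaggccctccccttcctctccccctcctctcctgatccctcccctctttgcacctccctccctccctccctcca

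Col17a1 held 2 TATA box matches, 140 and 91 bases before the start, and Col3a1 held 1, 117 bases before the start. Over all 32851 windows of this length, 12.4% held a TATA box match, 33.8% a CCAAT box match and 32.7% a GC box match. GC box matches stood in Col7a1, Col4a6 and Col5a3, and CCAAT box matches in Col17a1, Col7a1 and Col5a3, so the higher and the lower genes shared both. The AP-1 letters appeared only in Col6a1 (6.75% of windows) and the Sox and Tcf letters only in Col3a1 (16.5%) among these 6 windows. GC content ranged from 35.2% in Col3a1 to 62.8% in Col5a3, beside a median of 52.4% over all windows. A match is a description of letters and not a binding site.

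In cKO mice alone, 9 of the 38 collagens (23.7%) passed between Exp 1 and Exp 2, against 9.98% of all genes. Of these, 4 were higher (10.5%, against 5.38%) and 5 lower (13.2%, against 4.6%). With arrays scaled by their median instead, 4 passed, 3 higher and 1 lower, and calls over all genes went from 1614 to 1031. With an unadjusted p under 0.05 there were 17 (44.7%, against 28.2% of all genes). No overlap between the cKO mice of Exp 1 and Exp 2 was seen for 8 higher collagens (21.1%, against 17.4%) and 15 lower ones (39.5%, against 13.8%). Col14a1 was 2.91-fold lower in Exp 1 (-1.54, SE 0.34, adjusted p = 0.0266), without overlap between the cKO mice listed above. Col17a1 (1.43) and Col7a1 (1.42) were each about as much higher, followed by Col4a6 (1.04) and Col23a1 (0.98). The lower genes besides Col14a1 were Col26a1 (-0.96), Col4a1 (-0.94), Col5a3 (-0.75) and Col6a2 (-0.68), with adjusted p between 0.0191 and 0.043. Col4a6 passed whichever mouse was left out, and each of the other 8 lost its call in 2 to 10 of the 12 fits without 1 mouse. The Col4a6 call again holds for probe A_52_P516409 only. The second probe of Col4a6 differed by -0.045 between the cKO mice of Exp 1 and Exp 2 (limma, adjusted p = 0.937). Without cKO mouse 1 of Exp 2, 2 collagens passed. Without cKO mouse 3 the count was 1, without cKO mouse 4 it was 3, and without cKO mouse 5 it was 4. With slide as a block 1 collagen and 146 of all genes passed in cKO mice. In the authors' deposited table of values (limma, same model) 0 collagens and 62 of all genes passed. Without its column of cKO mouse 1, which did not match its own array best, 5 collagens and 1058 of all genes passed.

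In WT mice alone, none of the 38 passed, against 0.841% of all genes, and 9 had an unadjusted p under 0.05 (limma; 23.7%, against 18.5% of all genes). The smallest p-values were those of Col4a6 (0.71, adjusted p = 0.058), Col18a1 (0.40, adjusted p = 0.078) and Col7a1 (1.05, adjusted p = 0.0836). For Col4a6 these values too are those of the brighter probe alone. Col7a1 was 4.02, 3.70 and 3.65 in WT mice of Exp 1, against 2.58, 2.68 and 2.96 in WT mice of Exp 2. Col17a1 was 4.37, 4.66 and 4.58, against 3.59, 3.80 and 3.65. Both genes kept WT mice of the 2 experiments apart, as did 6 more higher collagens (21.1% in all, against 14.5% of all genes) and 8 lower ones (21.1%, against 13.4%). Without cKO mouse 5, whose spread enters the shared error, 3 collagens passed in WT mice (limma). Among them were Col4a6 (adjusted p = 0.037) and Col7a1 (adjusted p = 0.0305), and Col4a6 also passed without WT mouse 5 (0.78). The comparisons in cKO and in WT mice were not shown to differ, since the interaction called no collagen.

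Most, though not all, of 9 chosen pairs of partner chains, wound into the same molecule, varied together from mouse to mouse within groups. The 9 are not all measured pairs. Col8a1 and Col8a2, the 2 network chains, were above background on all 12 arrays and were not tested. The cKO mouse lowest in Col8a1 (mouse 2 of Exp 1, -4.32, and mouse 3 of Exp 2, -4.13) was highest of its group in Col8a2 (-0.65 and -0.55). This was not so in either WT group. Each mouse's deviation from its group mean was compared between 9 pairs of partner chains over 12 mice, with mice exchanged within groups in an exact two-sided permutation test of 1296 arrangements and p adjusted over the 9 pairs. Col4a3 and Col4a4 had r = 0.95 and rho = 0.94 (adjusted exact p = 0.00695 for each), and r was 0.92 without the 2 mice farthest from the median, cKO mouse 5 and WT mouse 2. Col4a3 was above background on 6 of the 12 arrays, and Col4a4 on all 12. Col4a1 and Col4a2 had r = 0.97 (adjusted exact p = 0.00972) and rho = 0.92 (adjusted exact p = 0.0208), and r was 0.93 without cKO mice 4 and 5. The genes of each of these pairs are neighbours read in opposite directions, with starts of Col4a1 and Col4a2 so close in GRCm38.p6 that the transcripts overlap by 22 bases.

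For Col6a1 and Col6a2, r was 0.89 and rho 0.83 (adjusted exact p = 0.00972 and 0.0389), and for Col1a1 and Col1a2 r was 0.85 and rho 0.79 (0.0336 and 0.0496, exact). The pairs of Col6a3 with Col6a2 and with Col6a1 had r = 0.78 and 0.70, and Col5a1 with Col5a2 had r = 0.51, all with adjusted exact p under the threshold for both measures. Col4a5 and Col4a6 had r = 0.77 (adjusted exact p = 0.0443) but rho = 0.64 (adjusted exact p = 0.0955), and r fell to 0.58 without cKO mice 2 and 3. Their starts have 1342 bases between them. Col9a1 and Col9a2, chains of cartilage type IX collagen above background on 9 and 12 arrays, had r = 0.18 (adjusted exact p = 0.653). Both chains of a pair were read from the same skin and array, so cell make-up and array quality are shared between the points. Collagens that are not partners were not compared in this way, so the values do not show a trait particular to partners.

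**Figure D4:**
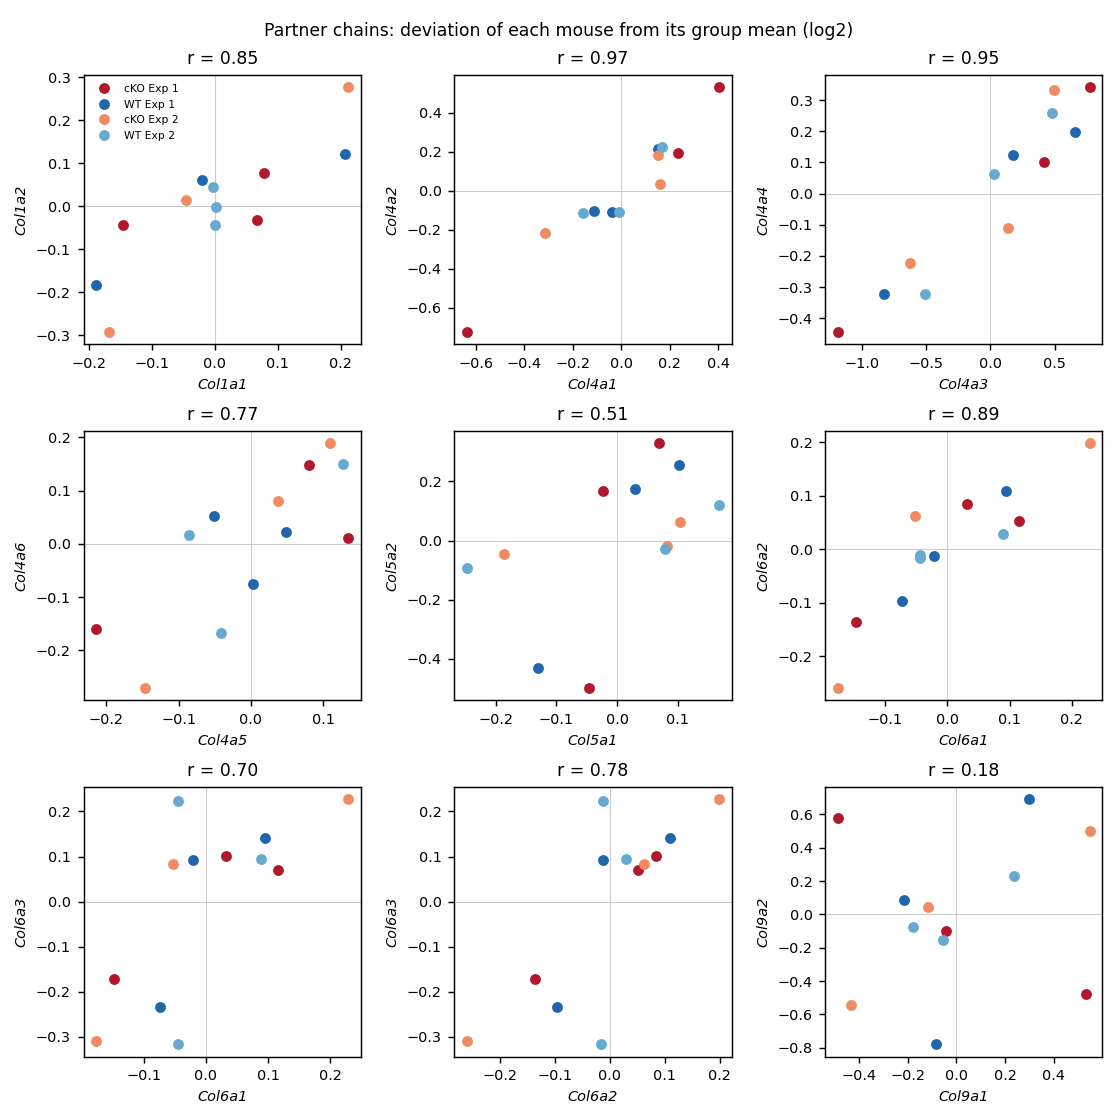
Deviation of each mouse from the mean of its group (log2) for the 9 chosen pairs of partner chains, with 1 point per mouse coloured by group and Pearson's r above each panel. Points follow a line for Col4a1 with Col4a2 (r = 0.97) and Col4a3 with Col4a4 (r = 0.95), and scatter for Col9a1 with Col9a2 (r = 0.18).

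Genes that make, mature, bind or degrade collagen were read from 5 lists. Between genotypes, averaged over experiments, no measured member of any of the 5 passed. All 12 degradation genes had negative values (median -0.21, beside -0.04 for all genes), as did 9339 of all 16177 genes. Between Exp 1 and Exp 2, 1 of 18 synthesis and folding genes passed, a smaller share than the 20.2% of all genes. This was P3h2, a prolyl 3-hydroxylase of type IV and other collagens, higher at -2.08 ± 0.58 in Exp 1 and -2.91 ± 0.23 in Exp 2 (SD, n = 6 each), a difference of 0.82 (adjusted p = 0.0143). Of 12 genes for propeptide removal and crosslinking 4 passed. Adamts14, a procollagen N-proteinase, was higher by 0.91 (adjusted p = 0.00325). Pcolce, which enhances C-propeptide cleavage, fell by 0.51 (adjusted p = 0.00409), the transglutaminase Tgm2 by 0.69 (adjusted p = 0.0174) and the lysyl oxidase relative Loxl3 by 0.68 (adjusted p = 0.0453). Pcolce averaged 6.10 ± 0.13 in Exp 1 and 6.61 ± 0.13 in Exp 2.

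Of 11 fibril partners, Ogn, a small leucine-rich proteoglycan, was lower in Exp 1 (-0.83, adjusted p = 0.0122). Among 8 receptors, the collagen-binding tyrosine kinase Ddr1 was higher (0.40, adjusted p = 0.0123) and the integrin chain Itga1 lower (-0.30, adjusted p = 0.0351). Among 12 genes of degradation, the collagenase Mmp13 was above background on 5 of 6 arrays of Exp 1 and on 0 of 6 of Exp 2. Its level in Exp 2 is therefore a bound, and Mmp13 was at least 2.63-fold higher in Exp 1 (limma, adjusted p = 0.0149). The mean signal was -3.68 ± 1.46 in Exp 1. The Exp 2 signal of -6.52 ± 0.76 was not above background and is not a measured level. Timp4, an inhibitor of matrix metalloproteinases, was lower (-1.34, adjusted p = 0.0087). Thus 1 of 11, 2 of 8 and 2 of 12 genes passed in these 3 lists, beside 20.2% of all genes. The median difference of the 5 lists lay between -0.14 and 0.06, beside 0.01 for all genes.

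Markers of cell types in skin were read beside the collagens, in a comparison in which 10.7% of all genes were higher in Exp 1 and 9.47% lower. Of 5 basal keratinocyte markers 4 were higher in Exp 1 (Krt5, Krt14, Itga6 and Itgb4, by 0.51 to 0.80), with a list mean of 6.14 to 7.15 in Exp 1 and 5.67 to 6.17 in Exp 2. The highest list mean, 7.15, was that of cKO mouse 5, which also had the highest Col7a1 and Col17a1. Of 7 fibroblast markers 3 were lower (Pdgfra, Dpt and Mfap5), with a list mean of 3.07 to 3.95 in Exp 1 and 3.74 to 4.15 in Exp 2. Of the 4 that did not pass, Dcn stood at 0.0038, Lum at 0.06, Fbn1 at -0.08 and Pi16 at -0.33. Of 5 endothelial markers 2 were lower (Kdr and Tek), with a list mean of -0.25 to 0.24 in Exp 1 and 0.17 to 0.31 in Exp 2. Cdh5 stood at -0.17, Pecam1 at -0.03 and Cldn5 at 0.14. Their part in the collagen differences was not tested.

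All 12 skeletal muscle markers were lower in Exp 1 (Mylpf, above background on 0 of 6 arrays there, at least 8.74-fold), with a median difference of -6.13 and a list mean of -4.43 to 0.18 in Exp 1 and -1.20 to 5.47 in Exp 2. WT mouse 5 was the Exp 2 mouse at -1.20, and the other 5 were at 4.21 or above. Between genotypes, no marker of any list passed, although all 12 muscle markers had positive values (median 2.51). Of the adipocyte markers 2 of 7 were lower in Exp 1 (Cidec and Pnpla2), of the Schwann cell markers 1 of 5 (Prx, lower), of the pericyte and smooth muscle markers 1 of 5 (Myh11, higher) and of the hair matrix and shaft markers 0 of 5. The shares of the Schwann cell, pericyte and hair matrix lists that passed lie at or under the 20.2% of all genes.

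**Figure D5:**
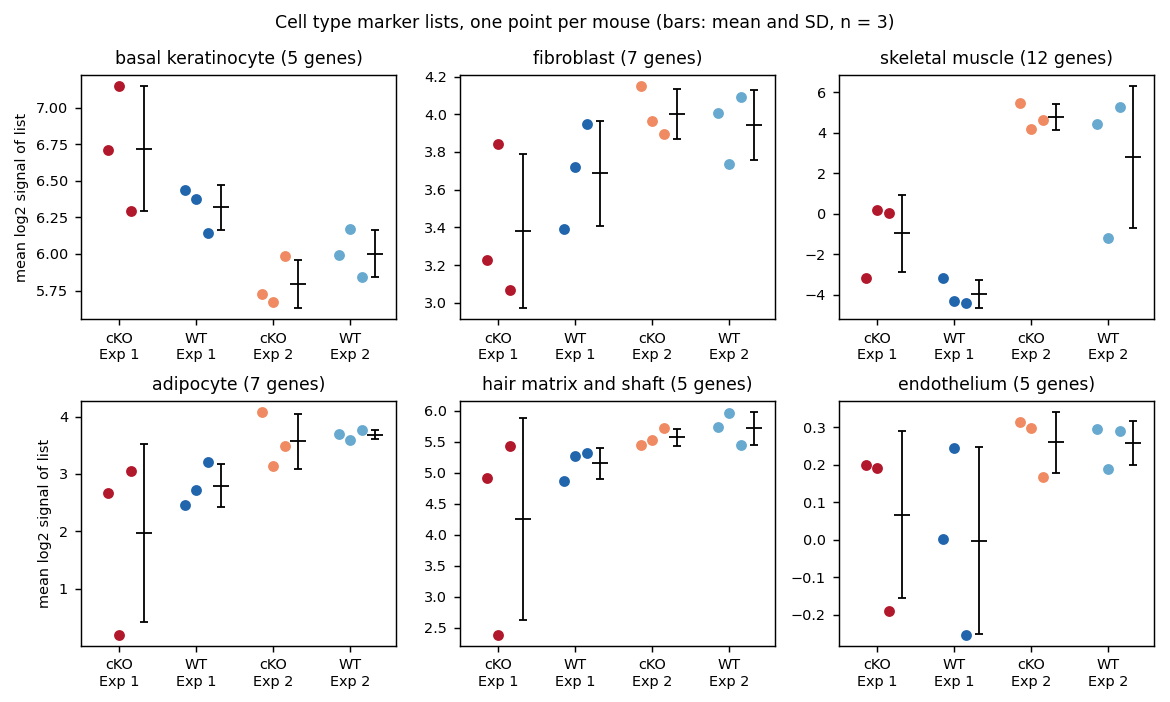
Mean log2 signal of 6 marker lists in each mouse (vertical axis), with 3 mice in each of cKO Exp 1, WT Exp 1, cKO Exp 2 and WT Exp 2 and black bars for mean and SD. Basal keratinocyte markers are higher in Exp 1, skeletal muscle markers are lower, and cKO mouse 5 stands apart at 0.20 in the adipocyte list and 2.39 in the hair matrix list.

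The arrays lay on 3 slides, and slides 1 and 2 each held both experiments and both genotypes. Within slide 1 (4 mice of Exp 1 and 2 of Exp 2), all 13 genes that differed between experiments kept their direction. Col7a1 stood at 0.97, Col17a1 at 1.01, Col4a6 at 0.71, Col14a1 at -0.39 and Col6a2 at -0.58. Within slide 2 (2 mice of Exp 1 and 3 of Exp 2) the values were 1.58, 1.29, 0.92, -1.51 and -0.40, and all 13 again kept their direction. Of the 13, 8 passed there, but on 1 residual degree of freedom, with 3 of the 4 groups held by 1 mouse each and cKO mouse 5 as the only cKO mouse of Exp 1, so these calls say little. Calls within slide 1 say as little, since WT mouse 5 and cKO mouse 1 were the only Exp 2 mice there, 1 per genotype. With slide as a block in the fit, 8 of the 13 passed, while calls over all genes went from 3269 to 2276. In the authors' deposited table of values 6 of the 13 passed, with 1626 calls over all genes. Without its column of cKO mouse 1, 10 of the 13 passed, with 3410 calls over all genes.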

How the data were processed

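Total RNA of plucked skin was measured on 1-colour arrays, 1 per mouse. Per the file headers, the deposited scanner files come from Feature Extraction 11.5.1.1 and hold the processed signal as a background-subtracted intensity, and raw spot and background intensity values. They also hold 0 or 1 flags, per the file headers. A further table of the authors' values, on the log2 scale (column medians 6.76 to 6.77), was deposited; the submitters' processing notes name limma, and its normalization and build are not stated in the labels. Its column for cKO mouse 1 matched its own array no better (r = 0.946 across probes) than that of WT mouse 6 (r = 0.947), so it served as an alternative only.

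Replicate spots other than outliers were averaged per probe as log2 processed signal, and each array was scaled by subtracting its own 75th percentile. Of 55681 probes, 27503 had 1 gene symbol by RefSeq transcript (GRCm38.p6 names) and 28178 had none and were left out; 90 values were missing. Probes of similar chains can read each other's transcripts. The fit (limma 3.58.1, R 4.3.3) had a mean for each of 4 groups, with 8 degrees of freedom left over and 2.3 from the prior, and took 7 contrasts, two-sided tests and Benjamini-Hochberg adjustment over 16177 genes at 0.05. Errors beside means are SD and beside differences SE; intervals are 95%. The number of arrays limits the precision. A bound ("at least") raises a group with no array above background to the lowest signal that passed there. It compares group means and makes no allowance for error. The fit was tested on simulated data.

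The raw intensity alternative used median spot signals. Other alternatives were scaling, the deposited log2 table, probe filters, probe averaging, outlier spots, slide, mouse number, a muscle covariate, array-name tags and leaving out each mouse. Mouse numbers did not pair mice across genotypes (correlations of same-numbered deviations -0.26 to 0.07). Members, classes and lists were chosen with earlier results of these data known. Genes named were 16 skin collagens (Col12a1 had no probe), in each contrast up to 12 called collagens by size (the 3 smallest p where under 3 passed), up to 4 called members of another list (all 12 muscle markers are counted, not named) and Sox4. Col8a1, Col8a2, Col22a1, Dcn, Lum, Fbn1, Pi16, Pecam1, Cdh5, Cldn5, Mylpf and the printed promoters were chosen after values were seen.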

Additional observations from a re-analysis of the deposited data

How the results depend on the processing

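Counts of collagens past the threshold were recomputed under 27 alternatives, 3 of them chosen after seeing the data (the authors' table without the column of cKO mouse 1, an array-name tag as a term, every kept probe on its own). For Exp 1 against Exp 2 averaged over genotypes, the 13 calls became 6 in the authors' value table, 10 in that table without cKO mouse 1 and 8 with a slide block. They became 0 within slide 1, 0 with the replicate block of mouse numbers, which do not pair the mice, and 0 with the skeletal muscle covariate, and 7 to 16 when 1 mouse was left out (7 without WT mouse 4 or without cKO mouse 3). All 13 genes kept their direction under every alternative that gave each gene 1 value. Between experiments in cKO mice, the 9 calls became 4 with median scaling, 0 in the authors' value table, 5 in that table without cKO mouse 1, 1 with a slide block, 0 within slide 1, 0 with the replicate block, 0 with the muscle covariate, 0 with the array-name tag, and 1 to 10 when 1 mouse was left out. In WT mice, the 0 calls became 2 with normexp and quantile normalization, 2 within slide 2, 1 in the authors' value table without cKO mouse 1, and 0 to 3 when 1 mouse was left out. Between genotypes, the 0 calls became 1 within slide 2 on average and 2 within slide 2 in Exp 1, and 0 to 1 when 1 mouse was left out (Col26a1, without cKO mouse 6). The count stayed at 0 for genotype in Exp 2 and for the interaction under all of these alternatives. Calls over all genes changed too. Averaged over genotypes, 3269 became 1626 in the authors' value table, 2276 with a slide block and 12 with the replicate block. Without the column of cKO mouse 1, that table gave 3410. In cKO mice, 1614 became 1031 with median scaling, 62 in the authors' table, 146 with a slide block and 92 with the array-name tag. Within slides 1 and 2 some groups held 1 mouse each, so counts there say little. The cause of these changes was not tested.

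Single values changed sign only where the main difference did not pass, and none passed after the change. Between genotypes, averaged, Col1a1 became -0.023 with median scaling. Col1a2 became 0.00097 in the authors' value table, 0.00021 within slide 1, 0.095 within slide 2 and 0.069 with a slide block. Col3a1 became -0.032 with median scaling and -0.070 with the muscle covariate. Col5a1 became 0.14 in the authors' value table and 0.097 within slide 1, and Col5a2 0.15 within slide 2. Col6a1 became 0.022 in the authors' value table, and Col14a1 0.066 there and 0.073 within slide 1. Col15a1 became 0.16 within slide 2 and 0.054 with a slide block, and Col17a1 -0.11 within slide 1. Within slide 2, Col5a1 became -0.10 for genotype in Exp 2 and 0.032 for the interaction, and Col6a3 0.18 for the interaction. Between experiments, Col1a1 became 0.075 with normexp and quantile normalization, 0.046 in the authors' value table, 0.11 in that table without cKO mouse 1, 0.016 with the replicate block and 0.075 with the muscle covariate, which also gave 0.089 for Col5a1 and 0.18 for Col5a2. Leaving out 1 mouse moved the genotype difference between -0.077 and 0.065 in Col1a2, -0.0078 and 0.14 in Col3a1, -0.091 and 0.017 in Col5a1, -0.29 and 0.047 in Col14a1 and -0.14 and 0.092 in Col15a1, and the experiment difference of Col1a1 between -0.073 and 0.032. Genes near background (11 of the 38, above it on 3 to 11 arrays) have the least certain values.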
